A study of Mus musculus with 8 samples.

Results

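Germinal centre B cells made without T cell help were compared with germinal centre B cells made with it. The 2 arrays of the T-independent response (TI) were set against the 4 arrays of both T-dependent responses (TD) taken as 1 group, which uses 6 of the 8 arrays of the series. The members were taken from the labels and not from measured values, so every probe set outside the array's own controls could be tested. Of 12488 probe sets, 66 were controls and 6937, naming 5214 genes, passed the filter and were tested.

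All mice were F1 offspring of QM and C57BL/6 (B6) parents. In QM (quasi-monoclonal) mice a rearranged heavy chain gene sits in the immunoglobulin locus, and paired with a lambda light chain it binds the hapten NP. TI mice were injected intraperitoneally with 30 µg of NP coupled to the polysaccharide Ficoll, with neither alum nor bacteria named, and their cells were taken on day 4. TD day 4 mice received a priming dose of chicken gamma-globulin (CGG, 50 µg) on alum together with heat-killed B. pertussis, and 5 weeks later a challenge with soluble NP-CGG (50 µg), with cells taken on day 4 after the challenge. TD day 10 mice received NP-CGG (50 µg) on alum with heat-killed B. pertussis and no priming, with cells taken on day 10. Germinal centre B cells were sorted as GL7+ B220+ cells. GL7- B220+ cells of unimmunised F1 mice, called resting here, were measured on the other 2 arrays. Each array held RNA of a pool of mice: 4 and 10 mice for TI, 6 and 9 for TD day 4, 6 and 6 for TD day 10, and 6 and 9 for resting. The pools were described by the submitters as biological replicates. Antigen, its dose and adjuvant differed between TI and TD along with T cell help. Priming differed from TI for TD day 4 only, and the day for TD day 10 only. All these cannot be told apart in the pooled contrast. GL7 and B220 gate on the cell surface, so the sorted cells may have held any B cell type with both markers.

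A germinal centre is the site in a lymphoid follicle where activated B cells divide, mutate their antibody genes and are selected. In a T-dependent response helper T cells keep this going through CD40 and cytokines, while a polysaccharide such as NP-Ficoll can start germinal centres by crosslinking B cell receptors, and these end early. A B cell that becomes an antibody-secreting plasma cell enlarges its endoplasmic reticulum (ER), where chaperones fold the new antibody chains and misfolded chains are sent back to the cytosol for destruction. The transcription factor XBP1 switches on much of this machinery, as does ATF6, which acts through the ER stress response element (ERSE).

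Genes of this machinery were among those higher in TI. The promoters of 4 ER chaperone genes are shown because these were the genes higher in TI in which the ERSE was found. Each is the 200 bases before the RefSeq gene start (mouse assembly GRCm38.p6), written 5′ to 3′ on the gene's strand, and the capitals mark the ERSE, which is CCAAT, then 9 bases of any kind, then CCACG, or its reverse complement:
Creld2, chr15:88819446-88819645, plus strand: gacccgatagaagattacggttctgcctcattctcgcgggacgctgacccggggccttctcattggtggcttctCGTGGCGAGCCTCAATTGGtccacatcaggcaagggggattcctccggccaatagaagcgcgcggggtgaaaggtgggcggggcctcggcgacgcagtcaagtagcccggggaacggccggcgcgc
Dnajc3, chr14:118937732-118937931, plus strand: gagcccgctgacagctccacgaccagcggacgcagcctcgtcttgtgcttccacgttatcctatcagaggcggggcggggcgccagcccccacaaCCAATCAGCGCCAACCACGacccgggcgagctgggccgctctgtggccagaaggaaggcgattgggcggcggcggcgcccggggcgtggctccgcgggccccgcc
Hsp90b1, chr10:86705445-86705644, minus strand: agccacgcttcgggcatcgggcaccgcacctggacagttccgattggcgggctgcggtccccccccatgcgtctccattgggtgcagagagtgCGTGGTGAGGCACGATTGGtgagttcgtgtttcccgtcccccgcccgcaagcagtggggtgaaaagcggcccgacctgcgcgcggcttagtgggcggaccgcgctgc
Hspa5, chr2:34771890-34772089, plus strand: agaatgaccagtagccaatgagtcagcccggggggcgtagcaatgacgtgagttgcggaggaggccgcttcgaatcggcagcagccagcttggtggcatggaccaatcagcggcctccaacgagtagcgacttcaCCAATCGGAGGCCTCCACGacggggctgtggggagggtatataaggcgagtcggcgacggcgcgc
The motif lay from 126 to 108 bases before the start in Creld2, from 105 to 87 in Dnajc3, from 107 to 89 in Hsp90b1 and from 65 to 47 in Hspa5. Hsp90b1 held a second match, from 212 to 194 bases before the start, which begins upstream of the stretch printed. Windows of 250 bases before to 50 after the start were searched on both strands. A match was found in 4 of 118 genes higher in TI with a promoter in the table (3.39%), in 0 of 121 genes lower in TI, in 10 of 4186 genes tested (0.239%) and in 37 of all 27025 promoters (0.137%). The XBP1 core motif TGACGTGG, which can share the letters CCACG with the ERSE, was searched in the same way and found in 4 of the 118 (3.39%, Hoxa11, Isg20, Stx5a and Txndc5), in 3 of the 121 (2.48%), in 56 of the 4186 (1.34%) and in 193 of all promoters (0.714%). These counts describe letters in a window, and no binding was measured.

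Values are the deposited intensities on a linear scale. Values under 81, the median of all values, were set to 81 before log2 was taken, so where arrays of the dimmer side lie below 81 the fold is given as at least its value. A probe set was called when the Benjamini-Hochberg adjusted p of limma's test was under 0.05 over all 6937. The log2 differences are TI minus the mean of the 4 TD arrays, ± the standard error of the fit, and a fold is the ratio of geometric means of the floored values. Array medians were 78 and 79 in TI and 80 to 89 in TD. Between the arrays of a group, log2 values differed with an SD of 0.551 for TI, 0.505 for TD day 4 and 0.557 for TD day 10. For resting cells it was 0.690, the largest. TI arrays correlated with TD arrays at 0.857 to 0.903, the TD arrays among themselves at 0.918 to 0.942, and the TI arrays with each other at 0.932, over the 6937 probe sets. The number of arrays limits the precision, and an exact permutation test of 2 against 4 arrays cannot go below 0.067.

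Controls of RNA quality moved with the contrast. The ratio of the 3′ to the 5′ Gapdh control probe set was 1.24 and 1.68 in TI and 0.836 to 0.981 in TD, and that of actin 1.59 and 1.91 against 1.24 to 1.48. Neither ratio overlapped between TI and TD (exact permutation test, two-sided, p = 0.067 for each, the smallest possible). In resting cells the Gapdh ratio was 0.867 to 1.59 and that of actin 1.55 to 1.88. The 18S ribosomal RNA control read 4927 and 5418 in TI and 1722 to 3007 in TD. Since TI and TD do not overlap in it, the Gapdh ratio and the antigen cannot be told apart. With the ratio as a covariate limma called 0 probe sets (650 at an unadjusted p under 0.05). Under that covariate all 89 called probe sets named here kept their direction, with adjusted p of 0.26 or more.

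The test called 389 probe sets (5.61%): 172 higher in TI (2.48%) and 217 lower (3.13%), while 1428 had an unadjusted p under 0.05. The median difference of all tested probe sets was -0.06. Of the 172 higher, 127 differed by at least 2-fold, 36 by at least 4-fold and 10 by at least 8-fold, and they named 152 genes. Of the 217 lower, 149 differed by at least 2-fold, 47 by at least 4-fold and 15 by at least 8-fold, and they named 156 genes. The TI arrays lay wholly above the 4 TD arrays in 951 probe sets (13.7%) and wholly below in 1190 (17.2%). In 31 of the higher and 48 of the lower calls every array of the dimmer side was below the floor. Such probe sets passed the filter only through the brighter side and had to differ. Calls rested unevenly on the TI arrays: without the first 171 were made, and without the second, the pool of 10 mice, 43.

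**Figure D1:**
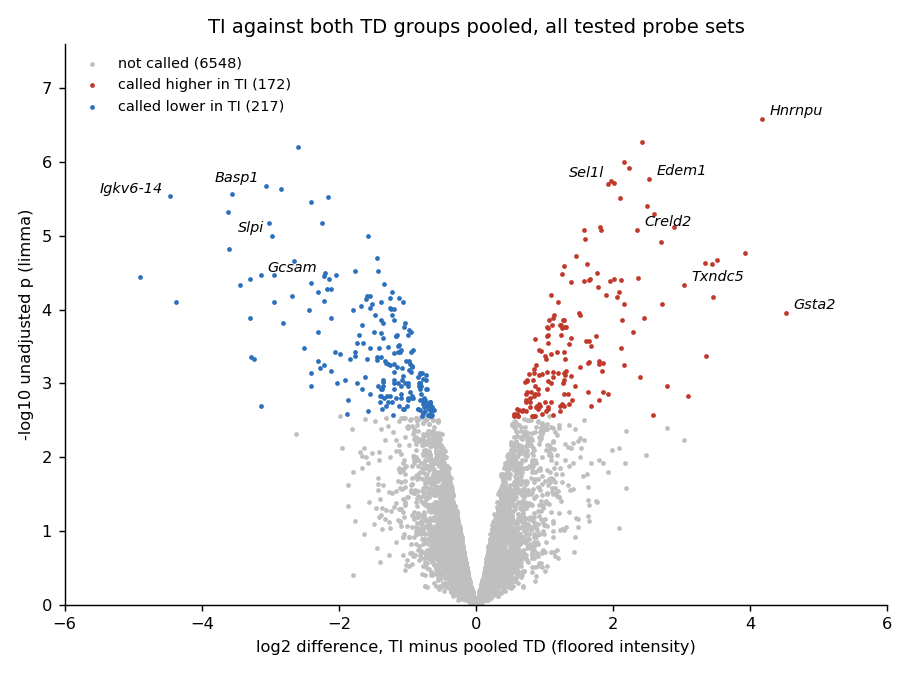
The log2 difference (x axis, TI minus pooled TD) is plotted against -log10 of limma's unadjusted p (y axis) for the 6937 tested probe sets, with the 172 called higher in red, the 217 called lower in blue and the rest in grey. Edem1, Sel1l and Creld2 stand among the highest points on the right, and Basp1, Slpi and Gcsam among those on the left.

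Genes of the 4 stages of the secretory pathway, from entry into the ER to transport out of it, were higher in TI, and none of their tested members was called lower. Of 23 tested ER chaperones and folding enzymes 8 were called higher, of 24 genes of translocation and N-glycosylation 8, of 15 genes of ER-associated degradation and the unfolded protein response 7, and of 27 genes of ER-to-Golgi transport 3, against 2.48% of all probe sets. Without the second TI array these counts fell to 1 (Creld2), 0, 1 (Edem1) and 0, and without the first to 4, 4, 2 and 1. Members above the floor only in TI, such as Sel1l and Man1b1, could not pass the filter with a single TI array. Their median log2 differences were 0.72, 0.47, 0.88 and 0.31, against -0.06 overall. TI lay wholly above TD in 15, 17, 8 and 11 members (13.7% of all probe sets) and wholly below in 1, 1, 3 and 0 (17.2% of all). Of these called genes Sel1l, Man1b1, Ddost and Sec23b had no TD array above the floor and so passed the filter only through TI. The lists name further called members beyond the 4 of smallest p, and those were named after their values were seen.

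Entry into the ER begins at the SEC61 channel. Sec61a1, its pore subunit, read 1314 and 1309 in TI, 565 and 541 in TD day 4, 636 and 638 in TD day 10, and 803 and 586 in resting cells. Both TI arrays lay above every other array, and the fold over TD was 2.21 (log2 1.14 ± 0.14, adjusted p = 0.0082). A second probe set of Sec61a1 was also called, at a log2 difference of 1.40. The small subunit Sec61b rose by 0.60 ± 0.12 (adjusted p = 0.049) and Tram1, which sits beside the channel, by 0.86 ± 0.15 (0.029), though another probe set of Tram1 gave 0.29 and was not called. H13, the protease that cuts spent signal peptides within the membrane, read 1477 and 2222 in TI and 139 to 262 in TD, a 10.1-fold difference (3.34 ± 0.30, adjusted p = 0.0043). H13 was the largest of these differences, but it rests on a probe set of the _r_at kind, for which the usual probe selection rules were relaxed.

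The oligosaccharyltransferase attaches sugars to chains as they enter. Its subunits Rpn1 (1613 and 2160 in TI against 719 to 839 in TD) and Rpn2 (1356 and 1701 against 569 to 710) rose 2.37-fold and 2.39-fold (1.24 ± 0.17 and 1.26 ± 0.16, adjusted p = 0.011 and 0.010). Each had a second probe set that was also called, at 1.68 for Rpn1 and 1.30 for Rpn2. Ddost, another subunit, read 149 and 255 in TI and below the floor on the 4 TD arrays, at least 2.41-fold higher (adjusted p = 0.028). Ssr2, of the translocon-associated complex, rose 2.44-fold (1.29 ± 0.21, adjusted p = 0.023).

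Among the chaperones, Creld2, an ER protein with isomerase activity, read 1338 and 1708 in TI, 300 and 306 in TD day 4, 250 and 337 in TD day 10, and 273 and 227 in resting cells. Both TD groups lay at the resting level, and only TI stood above it. The fold over TD was 5.10 (2.35 ± 0.18, adjusted p = 0.0022). Hsp90b1 (GRP94), the ER member of the HSP90 family, read 3734 and 4400 in TI, 726 to 1195 in TD, and 1253 and 1105 in resting cells, a 4.25-fold difference (2.09 ± 0.22, adjusted p = 0.0057). Txndc5, a disulfide isomerase, read 3083 and 3950 in TI and 289 to 594 in TD, a difference of 8.17-fold (3.03 ± 0.31, adjusted p = 0.0050).

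Hspa5 (BiP), the chaperone that holds free antibody heavy chains, changed less. It read 1983 and 2037 in TI, 1008 and 1356 in TD day 4, 928 and 1029 in TD day 10, and 1114 and 1129 in resting cells. The groups did not overlap, and the fold was 1.88 (0.91 ± 0.18, adjusted p = 0.043). Its partners Dnajc3 (1.64 ± 0.25, adjusted p = 0.019) and Dnajb11 (1.18 ± 0.17, 0.016) rose too, and a second of the Dnajc3 probe sets agreed at 1.76, while another gave 0.26 and was not called. Pdia4 read 716 and 931 in TI against 44, 223, 22 and 237 in TD, at least 5.98-fold higher (adjusted p = 0.049), with a TD array of each day below the floor. Fkbp2, a proline isomerase, rose 1.74-fold (adjusted p = 0.033). Not every chaperone moved: of the genes with an ERSE, Canx (calnexin) differed by -0.25 ± 0.15 (adjusted p = 0.42), Pdia6 by 0.26 ± 0.15 (0.41) and Ero1b by 0.72 ± 0.21 (0.12), and none of these was called. In all, 7 of the 21 tested chaperone genes with a promoter in the table held the motif.

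In ER-associated degradation, Edem1, a lectin that picks out misfolded glycoproteins, read 639 and 803 in TI, 128 and 133 in TD day 4, 118 and 118 in TD day 10, and 29 and 46 in resting cells. The 4 TD arrays lay close together, and TI was 5.77-fold above it (2.53 ± 0.15, adjusted p = 0.0014). Edem2 rose 2.60-fold (1078 and 1295 against 378 to 546, adjusted p = 0.012). Sel1l, the scaffold of the ER ubiquitin ligase HRD1, read 326 and 308 in TI and below the floor on the other 6 arrays, at least 3.91-fold higher (1.97 ± 0.12, adjusted p = 0.0014), while its other tested probe set gave 0.28 and was not called. Man1b1, the ER mannosidase that marks glycoproteins for disposal, read 382 and 540 in TI and below the floor on all TD arrays, at least 5.61-fold higher (adjusted p = 0.0016). Selenos, which links the ligase to the extraction machinery, was at least 2.19-fold higher (adjusted p = 0.0088).

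Xbp1, the transcription factor of the unfolded protein response and of plasma cells, read 2072 and 2951 in TI, 810 and 761 in TD day 4, 497 and 856 in TD day 10, and 756 and 548 in resting cells. TD lay close to resting cells and TI lay 3.46-fold above TD (1.79 ± 0.27, adjusted p = 0.018). The array reports the total transcript and not its spliced form. Mbtps1, the Golgi protease that cuts ATF6 into its active form, rose 2.43-fold (475 and 462 against 166 to 223, adjusted p = 0.0089).

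In transport, Kdelr1, the receptor that returns escaped chaperones to the ER, read 1117 and 1436 in TI, 504 to 576 in TD, and 929 and 1056 in resting cells. Here TI lay near resting cells and TD below them, with a 2.36-fold difference between TI and TD (1.24 ± 0.15, adjusted p = 0.0094). Stx5a, the SNARE of ER-to-Golgi vesicles, showed the same order (522 and 595 in TI, 141 to 256 in TD, 352 and 518 in resting cells; 1.44 ± 0.26, adjusted p = 0.029). Sec23b, of the COPII coat, was at least 2.06-fold higher (adjusted p = 0.010).

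**Figure D2:**
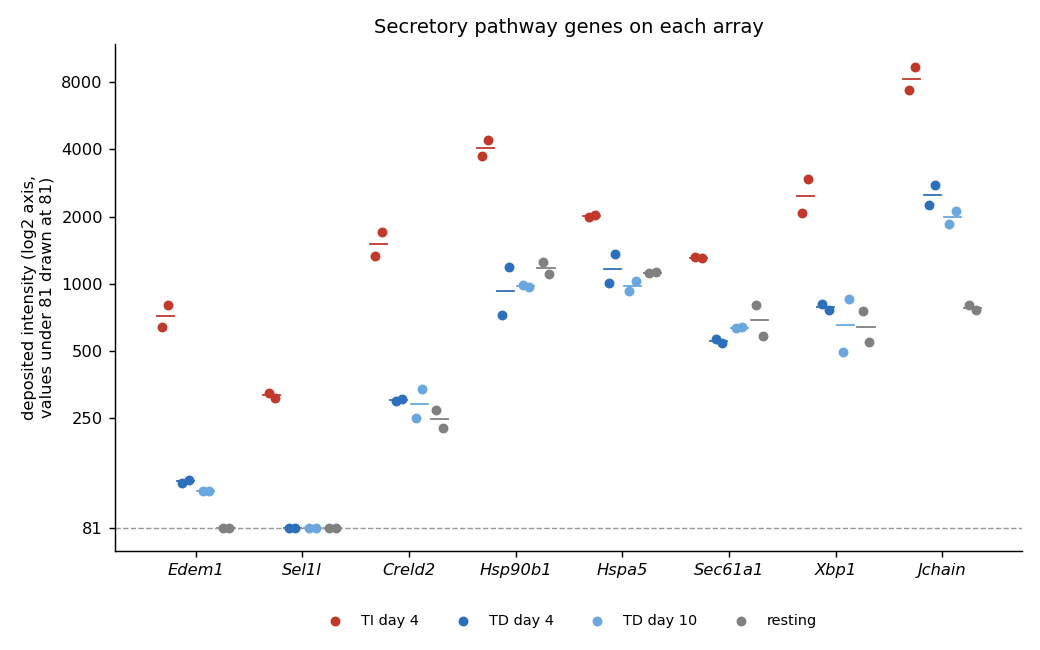
Deposited intensity on a log2 axis for 8 secretory pathway genes on each array, with TI in red, TD day 4 in dark blue, TD day 10 in light blue and resting in grey, bars at the geometric means, and values under 81 drawn at the dashed floor. In every gene both TI arrays lie above all 4 TD arrays, while Edem1 and Jchain also have TD above resting.

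Genes of plasma cell fate, a list that shares Xbp1 with the one above, were called higher in 3 of 6 tested members (2.48% of all probe sets) and lower in 0. Without the second TI array 0 were called, and without the first 2. Jchain, the chain that joins IgM pentamers and IgA dimers, read 7347 and 9356 in TI, 2266 and 2770 in TD day 4, 1860 and 2121 in TD day 10, and 803 and 764 in resting cells. No other array came near the TI values, and the fold over TD was 3.72 (1.89 ± 0.20, adjusted p = 0.0061). TD in turn lay 2.85-fold above resting cells (adjusted p = 0.0038). Tnfrsf17 (BCMA), the survival receptor of plasma cells, read 563 and 805 in TI and 235 to 296 in TD (1.36 ± 0.19, adjusted p = 0.014). Ell2, an elongation factor that plasma cells use to make secreted heavy chain, read 718 and 649 against 293 to 535 and was not called (adjusted p = 0.12). Irf4 overlapped, at 125 and 516 in TI and 59 to 263 in TD (adjusted p = 0.65), and the coactivator Pou2af1 differed by -0.07 ± 0.16.

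The plasma cell markers summed to 11007 and 14377 intensity units in TI, 3137 to 4702 in TD and 2264 to 2393 in resting cells, with Jchain alone giving 7347 and 9356 of the TI sums and 1860 to 2770 of the TD sums. Defining markers were at or near the floor. Prdm1, the master regulator, read 76 and 63 in TI and 44 to 83 in TD, and Sdc1 (CD138), the surface marker used to sort plasma cells, 106 and 37 in TI and -45 to 72 in TD, so neither was tested. In bulk RNA a few cells with much of a transcript and many cells with a little cannot be told apart, which holds for every gene given here.

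Immunoglobulin probe sets moved both ways. Of 23 tested kappa variable probe sets 14 were called lower in TI and 2 higher (median -1.57). Over all probe sets 3.13% were called lower and 2.48% higher. Of 4 probe sets classed as lambda, those of the surrogate chain gene Igll1 among them, 2 were called higher and 0 lower. A lambda probe set annotated to both Iglc1 and Iglv1 read 20316 and 21989 in TI, 2832 and 3894 in TD day 4, 1246 and 1349 in TD day 10, and 2919 and 2860 in resting cells. TI lay 10.2-fold above TD (3.35 ± 0.50, adjusted p = 0.017). The TD groups differed from each other here by -1.36 (TD day 10 minus TD day 4, unadjusted p = 3.9e-04, adjusted 0.23). A dimmer probe set annotated to Iglc1 alone overlapped, at 357 and -28 in TI and 272 to 561 in TD. It pointed the other way and was not called (-1.25 ± 0.62, adjusted p = 0.34). Igll1, annotated as the surrogate light chain lambda 5, rose 2.87-fold (1554 and 1888 against 495 to 699, adjusted p = 0.0084), although its other probe set differed by -0.50 and was not called.

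The kappa probe sets with the largest falls were Igkv6-14, at 132 and 9 in TI and 1799 to 3118 in TD, Igkv10-96, at 128 and 90 against 619 to 1206, and Igkv4-68, at 330 and 234 against 1351 to 2114. The first was at least 22.2-fold lower, the others 8.74-fold and 6.30-fold lower (adjusted p = 0.0015, 0.0048 and 0.0042). In resting cells these 3 read 1250 to 2219, 1141 to 2161 and 1745 to 3303, on the TD side. The bright Igkv6-23 probe set fell 2.33-fold, from 13571 to 16785 in TD to 6898 and 6664 in TI (adjusted p = 0.0083). Against these, Igkv9-120 rose 10.9-fold (22145 and 20776 against 1261 to 2835, adjusted p = 0.0043). Igkv14-111 was called in both directions, at -2.59 ± 0.13 by one probe set and 1.65 ± 0.25 by another, and 16 of the 23 kappa variable probe sets are of kinds that several sequences share. A symbol here therefore names a probe set and not a measured gene segment.

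The heavy chain symbols were split likewise. The 2 brightest Ighm probe sets read 26623 and 26193 against 8894 to 17256, and 15985 and 17178 against 4926 to 10225, at log2 differences of 1.05 ± 0.28 and 1.18 ± 0.32 that were not called (adjusted p = 0.090 and 0.097). TI lay 2.07-fold and 2.27-fold above TD without overlap, and TD day 10 was the lowest group in both. An Ighg3 probe set rose 2.45-fold (1979 and 3036 against 909 to 1208, adjusted p = 0.026), while a dimmer one of the shared kind fell 12.2-fold (92 and 95 against 729 to 1571, adjusted p = 0.0034), and such an Ighm probe set was at least 5.30-fold lower (25 and -11 against 230 to 606, adjusted p = 0.023). That Ighm probe set was below the floor on both TI arrays, so it passed the filter only through TD.

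**Figure D3:**
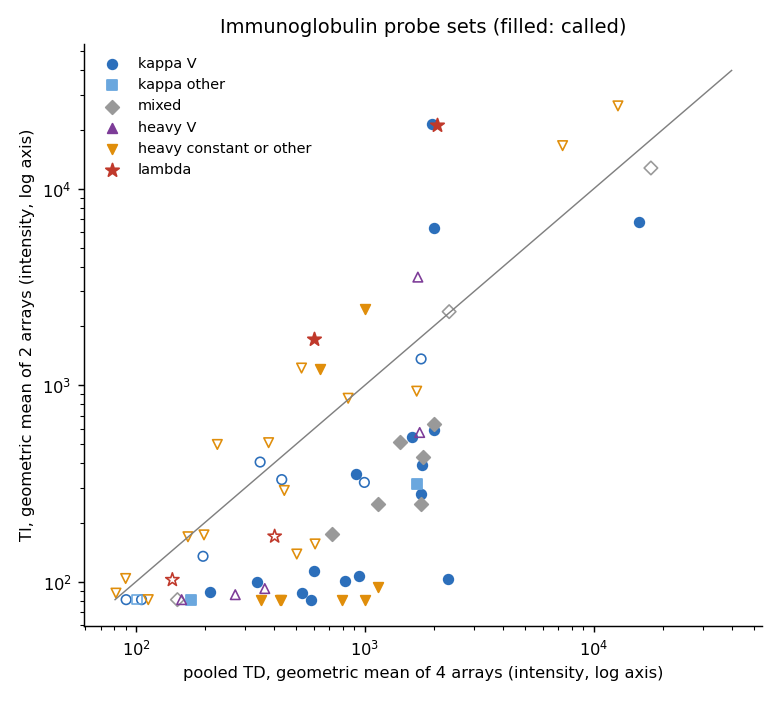
Geometric mean intensity in TI (y axis, 2 arrays) against pooled TD (x axis, 4 arrays), both on log axes with values under 81 set to 81, for each tested immunoglobulin probe set, with colour and shape for its class, filled symbols for called ones and the diagonal for equal levels. Most kappa variable probe sets lie below the diagonal, while the brightest lambda probe set and Igkv9-120 lie far above it.

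Outside these groups, the largest rises were a mixed set. Gsta2, a glutathione transferase, read 2244 and 3301 in TI against 105, 276, 10 and 0 in TD, at least 23.2-fold higher (4.53 ± 0.53, adjusted p = 0.0079). Hnrnpu, a nuclear RNA-binding protein, read 1358 and 1792 against -47 to 103, at least 18.1-fold higher (adjusted p = 0.0014), but its other probe set differed by -0.55 and was not called. Tnnt1 (troponin T, at least 15.1-fold), Cmc2 (a mitochondrial protein, at least 11.0-fold), Anapc13 (of the anaphase-promoting complex, at least 6.88-fold) and Cux1 (a homeodomain factor, at least 6.03-fold) also had a second probe set that was not called, at -0.39, -0.19, 0.23 and 0.33. The called Cux1 probe set was below the floor on every TD array, so it passed the filter only through TI and had to differ. Of the 20 largest rises 6 had another tested probe set, and 0 of these 6 had one called the same way.

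The single-probe-set genes among them included Nadk, the kinase that makes NADP (645 and 1437 against -75 to 96, at least 11.4-fold, adjusted p = 0.0042), and Rap1gap, which switches off the adhesion GTPase Rap1 (465 and 786 against -112 to 83, at least 7.42-fold, adjusted p = 0.0022). Rexo2, a nuclease of short RNAs, rose 6.52-fold (775 and 1171 against 125 to 174, adjusted p = 0.0028). Hsd3b5, a steroid dehydrogenase, rose 8.57-fold, at 355 and 386 in TD day 4 but 137 and 107 in TD day 10 (adjusted p = 0.036). Tent5c, a poly(A) polymerase that extends secretory transcripts in plasma cells, rose 5.45-fold (690 and 1096 against 114 to 211, adjusted p = 0.0086). Isg20, an interferon-induced nuclease, rose 5.14-fold (486 and 675 against 89 to 139, adjusted p = 0.0048). It was the only called member among 17 tested genes of the type I interferon response (2.48% of all probe sets were called higher). The uncharacterised 1700017B05Rik was at least 5.28-fold higher (adjusted p = 0.025).

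A pair of surface proteins were above the floor in TI and below it on every TD array, so that they passed the filter only through TI and had to differ. Cd9, a tetraspanin of marginal zone and B1 cells and of plasma cells, read 312 and 384 in TI, below 0 on the 4 TD arrays, and 40 and 183 in resting cells, at least 4.27-fold higher than TD (2.10 ± 0.14, adjusted p = 0.0015). Cd302, a lectin receptor, read 417 and 449 in TI, -41 to 63 in TD, and 850 and 608 in resting cells. TI was at least 5.34-fold above TD (adjusted p = 0.0014), and TD at least 8.88-fold below resting (adjusted p = 5.1e-04). The other tested markers of marginal zone and B1 cells did not pass: Cr2 (CD21) differed by -0.51 (adjusted p = 0.25) and Dtx1 by -0.17 (0.79).

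B cell receptor signalling was called higher in 4 of 25 tested genes (2.48% of all probe sets) and, by the brightest probe sets, lower in 0. On leaving out each array in turn at most 1, Nfatc1, was called. Nfatc1, a calcium-driven transcription factor, read 1097 and 842 in TI, 393 and 403 in TD day 4, 220 and 266 in TD day 10, and 382 and 356 in resting cells. TI lay 3.10-fold above TD (1.63 ± 0.30, adjusted p = 0.032), and the TD groups differed by -0.72 (unadjusted p = 0.010, adjusted 0.68). Ptpn6 (SHP-1), a phosphatase that restrains the receptor, read 2635 and 2948 in TI, 1564 to 1755 in TD, and 3077 and 3663 in resting cells (0.75 ± 0.13, adjusted p = 0.026). Blk, a receptor kinase, had the same order at 2205 and 2639, 1195 to 1492, and 2304 and 3306 (0.79 ± 0.16, adjusted p = 0.042), but its other probe set gave 0.35 and was not called (adjusted p = 0.36). Cd81, a tetraspanin, rose 1.82-fold (adjusted p = 0.034). In both Ptpn6 and Blk TD lay below resting cells (-1.02 and -0.99, adjusted p = 0.0084 and 0.024) and TI was not called against resting (-0.27 ± 0.17 and -0.19 ± 0.23).

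Germinal centre identity, by the brightest probe sets, was called lower in 2 of 18 tested genes and higher in 1, against 3.13% and 2.48% of all probe sets. Dimmer probe sets of the members Basp1, Cd83 and Plxnb2 were also called lower, at -3.06, -2.21 and -1.43 (adjusted p = 0.0014, 0.0064 and 0.029). The median of the 18 was -0.28, with TI wholly below TD in 8 (17.2% of all probe sets) and wholly above in 2 (13.7%). Without the second TI array 0 were called, and without the first only Gcsam was. Gcsam, an adaptor that slows germinal centre B cells, read 156 and 131 in TI, 753 and 661 in TD day 4, 768 and 501 in TD day 10, and 154 and 101 in resting cells. TI lay at the resting level and 4.63-fold below TD (-2.21 ± 0.21, adjusted p = 0.0048), while TD lay 5.30-fold above resting (adjusted p = 0.0028). Lmo2, a transcriptional adaptor, read 459 and 383 in TI, 668 to 780 in TD, and 845 and 933 in resting cells (-0.75 ± 0.14, adjusted p = 0.038). Efnb1, a ligand used in contact with follicular helper T cells, rose 1.65-fold (323 and 361 against 188 to 224, adjusted p = 0.038).

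Bcl6, the repressor that defines the germinal centre programme, read 846 and 1034 in TI, 1409 and 1236 in TD day 4, 1475 and 1407 in TD day 10, and 452 and 438 in resting cells. It was above resting in every germinal centre array, by 2.10-fold in TI and 3.10-fold in TD (adjusted p = 0.016 and 0.0020), and the step between TI and TD (-0.56 ± 0.15, adjusted p = 0.096) was not called. Ezh2, the histone methyltransferase of dividing germinal centre cells, overlapped between TI (284 and 330) and TD (280 to 387) and was below the floor in resting cells. Mef2b differed by -0.30 ± 0.17 (adjusted p = 0.39) and Pax5 by 0.06 ± 0.12 (0.83). The B cell markers Cd79a, Cd79b and Ms4a1 read 4405 to 8151 on the germinal centre arrays, and by their brightest probe sets 0 of 9 tested B cell markers were called (2 higher and 2 lower at an unadjusted p under 0.05). Ptprc, whose product carries the B220 epitope used in the sort, was not called by its brightest probe set (-0.76 ± 0.22, adjusted p = 0.11), but another read 87 and 39 in TI and 251 to 337 in TD and was called, at least 3.38-fold lower (adjusted p = 0.0048). Of the germinal centre markers Fas read below 50 units and Mybl1 below the floor on every array.

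Basp1, a membrane protein high in germinal centre cells, was among the largest falls, at 584 and 495 in TI, 3677 to 5311 in TD, and -26 and 6 in resting cells. The fold was 8.37 (-3.06 ± 0.19, adjusted p = 0.0014). Its other probe set read 2309 and 2909 against 3820 to 4183, and 3376 and 2462 in resting cells. There the difference from TD of -0.63 ± 0.14 was not called (adjusted p = 0.065). Slpi, a secreted protease inhibitor, read 130 and 87 in TI, 697 to 1015 in TD, and 213 and 163 in resting cells, 7.87-fold lower in TI (-2.98 ± 0.23, adjusted p = 0.0025), with its other tested probe sets at -0.39 and -0.37. Cd83, an activation marker of light zone B cells, read 76 and -34 against 264 to 471, at least 4.63-fold lower (adjusted p = 0.0064), and its second probe set gave -0.52. The called Cd83 probe set was below the floor on both TI arrays, so it passed the filter only through TD and had to differ. In Basp1, Slpi and Cd83 every tested probe set pointed the same way, but only 1 of each was called.

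Further large falls were Ids, a lysosomal sulfatase (105 and 174 against 697 to 1176, 6.39-fold, adjusted p = 0.0061), Dguok, the mitochondrial kinase of deoxyguanosine (77 and 109 against 411 to 474, at least 4.76-fold, adjusted p = 0.0022), and Srsf1, a splicing factor (118 and 75 against 387 to 519, at least 4.60-fold, adjusted p = 0.0048). Their other tested probe sets gave -0.35, -0.30 and -0.25 to -0.60 and were not called. Junb, of the AP-1 family, was at least 7.73-fold lower by one probe set (adjusted p = 0.0064) and differed by -0.10 in the other (adjusted p = 0.95). The called Junb probe set was below the floor on both TI arrays, so it too passed the filter only through TD. Adck1 was at least 10.9-fold lower (146 and 31 against 801 to 1632, adjusted p = 0.0051), and its 3 probe sets, all of a shared-sequence kind, were called lower. Of the 15 largest falls 13 had another tested probe set, which was called the same way in 3 and the opposite way in 3, all of them immunoglobulin symbols or Adck1.

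Myc targets and ribosome biogenesis were called lower in 5 of 30 tested genes (3.13% of all probe sets were) and higher in 0, with a median of -0.41, TI wholly below TD in 15 (17.2% of all) and wholly above in 2 (13.7%). Without the second TI array 0 were called, and without the first 3. Npm1 (nucleophosmin), a nucleolar chaperone, read 823 and 801 in TI, 1550 and 2423 in TD day 4, 1868 and 1656 in TD day 10, and 619 and 511 in resting cells. TI lay 2.27-fold below TD (-1.19 ± 0.21, adjusted p = 0.028) and TD 3.28-fold above resting. Apex1, a base excision repair enzyme, read 198 and 225 in TI, 473 to 518 in TD, and 491 and 448 in resting cells (-1.23 ± 0.13, adjusted p = 0.0057), so that here TI alone was low. Cct8 (-0.73 ± 0.12, adjusted p = 0.026) and Tcp1 (at least 2.39-fold lower, 0.0071), both subunits of the cytosolic chaperonin, and Rrs1, a ribosome assembly factor (at least 2.58-fold lower, 0.031), made up the 5. Of these, Tcp1 was below the floor on both TI arrays, so it passed the filter only through TD and had to differ.

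**Figure D4:**
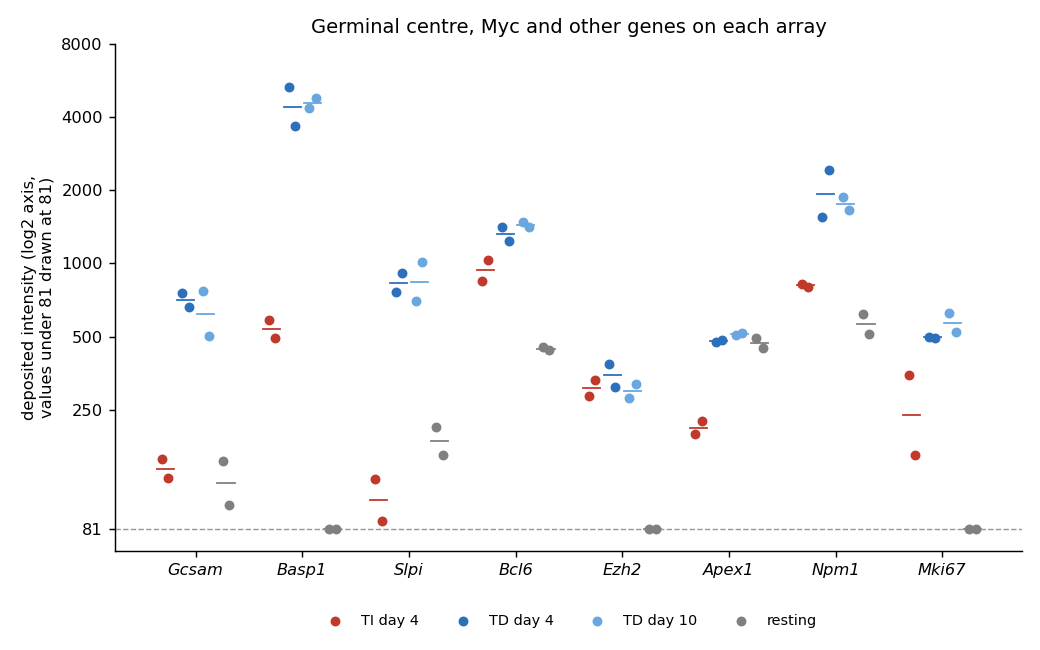
Deposited intensity on a log2 axis for 8 germinal centre, Myc and other genes on each array, with TI in red, TD day 4 in dark blue, TD day 10 in light blue and resting in grey, bars at the geometric means, and values under 81 drawn at the dashed floor. TI lies below TD in each gene but Ezh2, where they overlap, and Bcl6 and Mki67 were not called.

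Genes of DNA replication gave 0 calls in 31, though 12 were lower and 2 higher at an unadjusted p under 0.05. Over all 6937 probe sets 1428 were below it in either direction. TI lay wholly below TD in 14 replication genes (17.2% of all probe sets) and wholly above in 2 (13.7%, median -0.21). Rfc4, a clamp loader subunit, came nearest (225 and 143 against 321 to 422, -1.03 ± 0.22, adjusted p = 0.051). Genes of G2 and mitosis gave 0 calls in 33 (2 higher and 3 lower unadjusted, median 0.06). In this list TI lay wholly above TD in 9 (13.7% of all probe sets) and wholly below in 4 (17.2%). Mki67, the proliferation marker, read 348 and 163 in TI, 491 to 623 in TD, and 9 and 34 in resting cells (-1.16 ± 0.31, adjusted p = 0.090), and its other probe set differed by -0.10. Both lists summed far above resting in TI and TD: replication to 18733 and 19851 in TI and 21427 to 23458 in TD against 2472 to 4945 in resting cells, and mitosis to 25113 and 25193 and 22155 to 25132 against 4333 to 4539.

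The proteasome list had 1 lower call in 30 tested genes, near the 3.13% of all probe sets: Psmd4, a ubiquitin receptor, at 110 and 187 in TI and 336 to 397 in TD (-1.35 ± 0.23, adjusted p = 0.026), with TI wholly below TD in 13 (17.2% of all) and wholly above in 4 (13.7%, median -0.30). Oxidative phosphorylation had 2 lower calls in 35, Ndufs1 of complex I (261 and 206 against 409 to 485, adjusted p = 0.022) and Cycs, cytochrome c (at least 2.17-fold lower, adjusted p = 0.041). Psat1, an enzyme of serine synthesis, was the 1 call in 17 genes of amino acid supply (442 and 440 against 613 to 739, -0.67 ± 0.14, adjusted p = 0.048). Hspa4, an HSP110 chaperone of the cytosol, fell 1.78-fold (adjusted p = 0.028) with another of its probe sets at -1.35, also called, while 3 others lay between 0.24 and 0.67 and were not. Glycolysis gave 0 calls in 14 (2 higher and 3 lower unadjusted).

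The CD40 and NF-kB list, whose signals helper T cells supply, gave 0 calls in 16 tested genes (3 higher and 4 lower at an unadjusted p under 0.05, median -0.16). Nfkb2 read 74 and 10 in TI, 134 to 291 in TD, and 613 and 611 in resting cells (at least 2.60-fold lower than TD, adjusted p = 0.063). Icam1, an adhesion molecule induced by NF-kB, differed by -0.74 ± 0.18 (adjusted p = 0.080), and Traf1, an adaptor of CD40, in the other direction by at least 0.96 (adjusted p = 0.058). Interleukin receptors and STAT signalling gave 0 calls in 13, and also 0 at an unadjusted p under 0.05. Among 20 B lineage transcription factors, each by its brightest probe set, only Ikzf1 (Ikaros) was called, and it was lower (3.13% of all probe sets were). Ikzf1 read 114 and 122 in TI and 248 to 475 in TD (-1.55 ± 0.29, adjusted p = 0.034). A dimmer probe set of Spib was also called lower (-1.40 ± 0.26, adjusted p = 0.035), while its brightest gave 0.42 ± 0.16 and was not. In MHC class II presentation 1 of 15 tested genes was called lower and 1 higher, against 3.13% and 2.48% of all probe sets. H2-DMb2, of the peptide-loading complex, fell 1.77-fold (699 and 757 against 1197 to 1404, adjusted p = 0.023) and Lgmn, a lysosomal protease, rose 1.65-fold (adjusted p = 0.034). Hexa, a lysosomal hexosaminidase, rose 1.85-fold (adjusted p = 0.041). By the brightest probe sets Hexa and Ids made up the calls among 25 lysosome genes, 1 higher and 1 lower (2.48% and 3.13% of all probe sets). In these 25 TI lay wholly above TD in 10 (13.7% of all) and wholly below in 1 (17.2%). A dimmer probe set of Psap, also on the list, was called higher (1.01 ± 0.15, adjusted p = 0.017).

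Immediate early and heat shock genes were uneven between arrays. Fos read 2150 and 1711 in TI, 250 and 1036 in TD day 4, 459 and 455 in TD day 10, and 101 and 195 in resting cells (1.99 ± 0.52, adjusted p = 0.089). Hspa1a and Hspa1b, the inducible HSP70 genes, read 2876 and 1709, and 3841 and 1874, in TI. In TD they read 152 to 912 and 280 to 1334 (3.03 ± 0.74 and 2.48 ± 0.67, adjusted p = 0.076 and 0.097), with the second TD day 4 array the highest of the 4 in both. TI lay above all TD arrays in these 3 genes, none was called, and the part of cell handling was not tested.

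**Figure D5:**
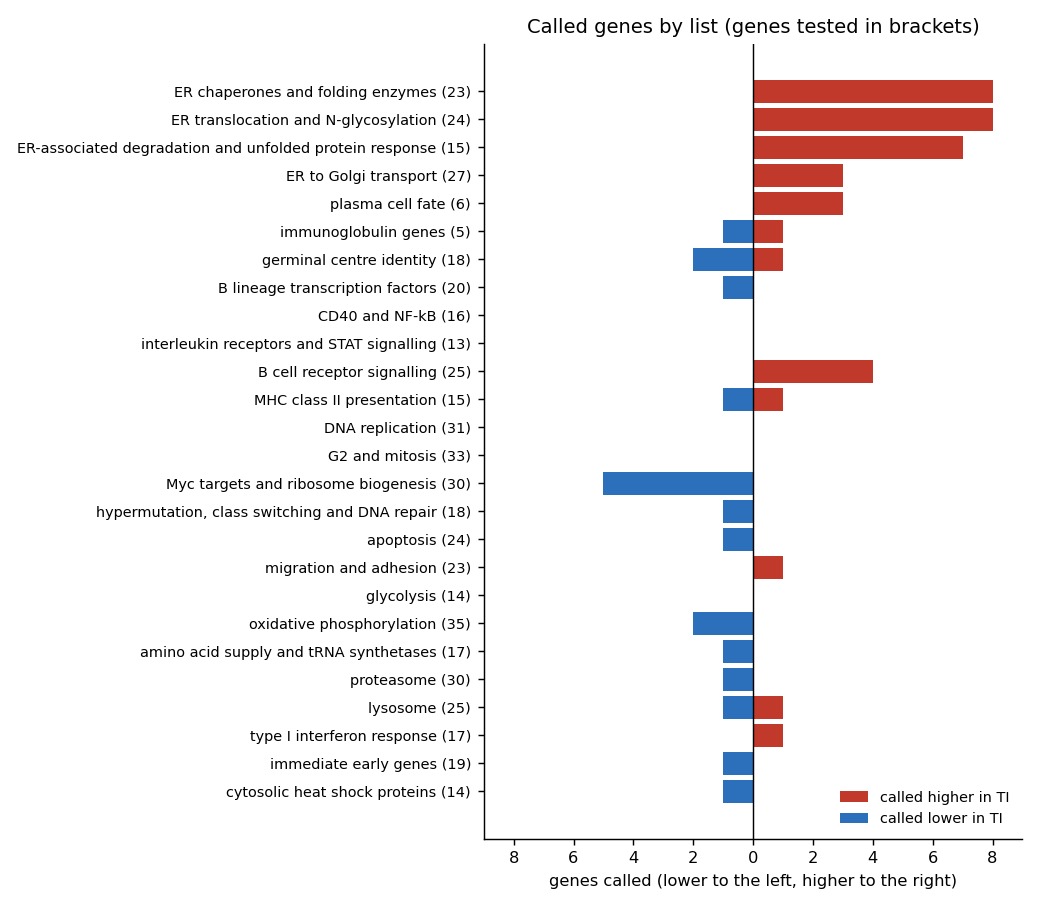
Number of genes called higher (red, to the right) and lower (blue, to the left) in TI for each of the 26 pathway lists, with the number of genes tested in brackets. The ER chaperone and ER translocation lists have 8 higher calls each and the ER degradation list 7, and the Myc list has 5 lower calls.

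Markers of other cells were read beside these results. Of 9 tested macrophage markers 0 were called (4 higher and 0 lower at an unadjusted p under 0.05), TI lay wholly above TD in 5 (13.7% of all) and below in 0, and the list summed to 8019 and 9399 in TI, 4005 to 5201 in TD and 7394 to 7794 in resting cells. Apoe made up most of that gap (4213 and 3371 in TI, 371 to 1305 in TD, adjusted p = 0.065), and C1qb read 871 and 1066 against 598 to 649 (adjusted p = 0.058). Among the members not tested, Adgre1 (F4/80) read below 0 on all arrays, those of resting cells included. On the germinal centre arrays Lyz2 read 51 or less and C1qa 130 or less, against 124 and 300, and 708 and 597, in resting cells. Vcam1 read 207 and 44 in TI, -37 to 27 in TD, and 341 and 421 in resting cells. Of 6 tested red cell markers 2 were called higher (2.48% of all probe sets were). These were Slc4a1 (band 3, 1700 and 2317 against 221 to 419, 6.54-fold, adjusted p = 0.0066) and Gata1 (at least 2.08-fold, 0.044). The globins did not follow: Hba-a1 read 508 and 490 in TI and 285 to 696 in TD, against 15550 and 13751 in resting cells. Cst3, the 1 call among 7 dendritic cell markers, read 1944 and 1720 in TI, 878 to 1035 in TD, and 1721 and 1587 in resting cells (adjusted p = 0.016). T cell (6 tested), neutrophil (10), NK cell (6), stromal (9) and platelet (1) markers gave 0 calls. Cd3d and Cd3e read 4 units or less on the germinal centre arrays, while Cd3g read 69 and 92 in TI and 62 to 75 in TD. In the 6 tested T cell markers TI lay wholly above TD in 2 (13.7% of all) and wholly below in 1 (17.2%). The part of other cells in the results was not tested.

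Pooling joins TD groups that differ in priming and day, so the difference between them was tested as well. In a fit of 4 groups on 8 arrays, limma called 0 probe sets between TD day 10 and TD day 4 (0%), with 365 (5.26%) at an unadjusted p under 0.05 and a smallest adjusted p of 0.13. The contrast counts this difference as spread, so probe sets in which the TD groups differ are less likely to be called in it. Among the 172 higher calls 7 (4.07%) and among the 217 lower calls 9 (4.15%) had an unadjusted p under 0.05 for it. Set against each TD group alone in that fit, TI differed from TD day 4 in 111 probe sets (1.60%) and from TD day 10 in 178 (2.57%). These share the TI arrays.

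Side by side, Edem1 differed by 2.46 from TD day 4 and 2.60 from TD day 10, Creld2 by 2.32 and 2.38, Xbp1 by 1.66 and 1.92, Jchain by 1.73 and 2.06, Gcsam by -2.30 and -2.12, Basp1 by -3.04 and -3.09, and Apex1 by -1.18 and -1.28. Of these 7, Xbp1 missed the threshold against TD day 4 (adjusted p = 0.070). Other genes called in the pooled contrast passed in neither, such as Txndc5 (2.99 and 3.07, adjusted p = 0.14 and 0.11), Hspa5 (0.78 and 1.04, 0.13 and 0.053) and Junb by a probe set below the floor in TI (lower by at least 7.73-fold in the pooled contrast, 0.14 and 0.14). The brighter of both Rpn1 probe sets passed in neither (0.14 and 0.10), while the dimmer passed against TD day 10 (0.032). Wider gaps were seen for Hsd3b5 (2.29 and 3.91) and the brightest lambda probe set (2.67 and 4.03), each higher over TD day 10, and Apoe (1.63 and 2.75). Between TI and resting cells 612 probe sets (8.82%) were called and between pooled TD and resting cells 889 (12.8%).

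Resting cells, which the contrast did not use, were set beside TI and TD for a part of the named genes. In 59 of the 172 higher and 76 of the 217 lower calls neither TI nor pooled TD was called against resting, so no side is shown for them. These comparisons share the TI and TD arrays with the contrast, and the genes given here are examples. Creld2, Edem1, Xbp1, Hsp90b1 and Sec61a1 were higher in TI than in resting cells by 2.60, at least 3.14 (resting below the floor), 1.94, 1.78 and 0.93 (adjusted p = 0.0023, 0.0010, 0.017, 0.011 and 0.034). In TD the same 5 differed from resting cells by 0.25, at least 0.62, 0.15, -0.30 and -0.21, and of these only Edem1 was called (adjusted p = 0.046). Gcsam, Slpi and Srsf1 showed the reverse, at 2.41, 2.17 and at least 2.28 (a resting array below the floor) in TD over resting cells (adjusted p = 0.0028, 0.0041 and 0.0019) and at 0.20, -0.81 and 0.08 in TI, where none was called. Psat1 rose over resting cells in both, by 1.93 in TI and by 2.60 in TD. Basp1 rose in both by its called probe set, by at least 2.73 and 5.80, with resting cells below the floor. The other Basp1 probe set differed from resting cells by -0.15 in TI and 0.47 in TD, neither called (limma adjusted p = 0.76 and 0.19). Cd302, Ptpn6, Blk, Kdelr1 and Stx5a were lower in TD than in resting cells and not called in TI.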

How the data were processed

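RNA of sorted B cells was extracted with RNAzol, biotin-labelled and hybridised to 8 Affymetrix mouse arrays, per the labels. Each deposited file column holds linear intensities as whole numbers, of which 30.1% are 0 or below, and how the authors scaled them is not given in the sources used. The values were used as deposited, with a floor at the 50th percentile of all values (81) before log2 was taken, so log2 differences of dim genes are understated. Probe sets above the floor on at least 2 of the 6 germinal centre arrays were kept, and 66 control probe sets were left out.

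Tests were made with limma 3.58.1 under R 4.3.3: a fit of TI against both TD groups as 1 group on 6 arrays (residual degrees of freedom 4, prior 2.30), and a fit of 4 groups on 8 arrays for all other comparisons. Tests were two-sided, with Benjamini-Hochberg adjustment over all 6937 probe sets in each comparison at 0.05. Exact permutation tests of single values ran over all 15 arrangements.

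Symbols came from the platform's annotation, updated by gene ID: 10855 probe sets name 1 gene, 396 several and 1237 none. Probe set names ending in _f_at, _s_at, _i_at, _r_at or _g_at mark probes that several sequences may share or relaxed selection. Of the tested, 1536 are of these kinds, with 37 of the higher and 81 of the lower calls.

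The comparison, the 38 gene lists (26 of pathways and 12 of markers, with 881 genes, 728 measured and 580 tested) and the tests were chosen with earlier results of these data known. The brightest probe set stands for a gene in a list. Named genes were the 20 largest rises and 15 largest falls among called probe sets with 1 symbol and no overlap, the 4 list members with the smallest p, a set of checks of the sort (Bcl6, Mki67, Gcsam, Jchain, Xbp1, Prdm1, Irf4, Pax5 and another not reported here) and the immunoglobulin constant genes. The text names part of these and adds others, chosen after their values were seen.

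Promoters came from RefSeq (GRCm38.p6), matched by symbol and read with Python 3.11.15 and pandas 2.3.3. Protein ends and gene positions were not analysed here. On simulated data of 6937 probe sets for this contrast, the test recovered 22.1% of changes by 2-fold and 69.3% by 4-fold. Averaged over 20 draws with 200 changed probe sets each, it made 96.0 calls, and 5.85 were false.

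Alternatives covered the floor, a pseudocount, scaling, the filter, the prior, array weights, blocks, other groupings, the Gapdh ratio as a covariate and leaving out each array. Leaving out immunoglobulin probe sets, shared-probe probe sets or markers of other cells was chosen after seeing the data.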

Additional observations from a re-analysis of the deposited data

Results flagged for a closer look

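Among the 4 TD arrays, 1 array stood apart from the other 3 in 7 of 103 named probe sets tested, where chance alone gives about 1 in 20. The second TD day 10 array read -112 for Rap1gap. The first TD day 4 array read 167 for Tcp1, the lowest, and 97 for Gata1, the highest. The second TD day 4 array read 613 for Psat1, the lowest, and 912 for Hspa1a and 1334 for Hspa1b, the highest. The first TD day 10 array read 13571 for Igkv6-23, the lowest.

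Control probe sets, which the contrast left out, lay above all other arrays on both TI arrays in 8 of 66 cases. Of the tested probe sets 13.7% had both TI arrays above the 4 TD arrays, a looser rule that leaves out the resting arrays. The count is therefore not read as a trait of the controls. The TI means of these 8 were 5173 for the 18S 3′ control, 24679.5 for the actin 3′ control, 470.0 and 1189.5 for its 5_st and M_st controls, 349 for BioC-5, 556 for BioDn-3, and 721 and 277 for the Gapdh 3_st and M_st controls. BioC and BioDn are bacterial transcripts added to the sample and not made by the cells, and BioDn-3 read 520 and 591 in TI and -400 to 135 in TD.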

How the results depend on the processing

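Against 389 calls, floors at the 40th and 60th percentiles gave 370 and 441, and quantile normalization 396, with medians of all probe sets between -0.07 and -0.04 at these floors. Counts moved by over 1.5 times with no filter (201), a block for the replicate number (250), the TD group as a random block (656), only TD day 4 (73) or only TD day 10 (104), the Gapdh ratio as a covariate (0) and no shared-probe probe sets (247). Leaving out each array gave 43 to 290: 213 and 290 without the first or second TD day 4 array, 245 and 231 without the first or second TD day 10 array, and 171 and 43 without the first or second TI array. Fits that leave out arrays have fewer samples, no filter tests more probe sets, leaving out shared-probe probe sets tests fewer, and for the others the cause was not tested. With 1 TI array left, it is assumed to vary like the others.

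Deviations of arrays with the same number correlated at -0.115, 0.125 and -0.110 across groups, so the numbers show no pairing. With the block, TI differed from TD day 4 in 50 probe sets instead of 111 and from TD day 10 in 118 instead of 178. Between the TD groups 1 probe set was called with the floor at the 40th percentile, and leaving out each TD array gave 0 to 1.

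All 89 called probe sets named kept their direction under those of the 27 alternatives that tested them. On leaving out each array in turn 15 stayed called and 7 could not always be tested, being under the filter without a TI array. Creld2, Edem1, Rexo2, Hnrnpu, Slpi, Srsf1 and Dguok, 7 in all, were also called under the 17 alternatives other than the covariate, no filter and a single TD group. Of genes not called, Pax5 turned to -0.00 under quantile normalization, and Ezh2 to 0.04 against TD day 10 alone. On leaving out each array Ezh2 and Pou2af1 ranged from -0.18 to 0.04 and Irf4 from -0.36 to 1.68. With the covariate Mki67 turned to 0.33 and Irf4 to -1.45. Background correction and a slide block could not be run on processed values.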
